A study of Mus musculus with 6 samples.

Results

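The NK gene complex is a stretch of mouse chromosome 6 that encodes C-type lectin-like receptors of natural killer (NK) cells and some T cells, together with several of their ligands. Its members were taken as the protein-coding genes of chromosome 6 whose symbol begins with Klr or Clec2 in a RefSeq gene table of build GRCm38.p6. This gave 37 genes, of which 35 lie on the main assembly among its 21770 protein-coding genes. Klra16 and Klra23 are placed on alternate scaffolds and were not analysed here. Chromatin digested with micrococcal nuclease was immunoprecipitated for H3K4me3, a modification of histone H3 that marks active promoters. The samples are labelled as CD8+ lymphocytes infiltrating tumours of E0771, a mouse mammary tumour line, in C57BL/6 mice. The cells came from mice with a Cre-mediated deletion of Atg5 (KO) or from wild-type mice (WT). Atg5 encodes a protein needed to form autophagosomes. The labels do not name the promoter that drives Cre, the age of the mice or how many were pooled.

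Receptors of this complex are type II membrane proteins that either activate or restrain killing. Activating members have no signalling motif of their own and pair with small adaptor proteins, whereas inhibitory members carry a tyrosine-based motif that recruits phosphatases. CD8+ T cells switch on a few of these genes, above all NKG2D and the CD94-NKG2A pair, after stimulation, while the Ly49 and NKR-P1 receptors are best known from NK cells.

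Each genotype had 1 library, so none of the differences below has a replicate check and no p-value is given. Sequencing depth is unknown from these lists. The KO list held 46565 H3K4me3 regions on the main chromosomes, covering 73.1 Mb, and the WT list held 48546 covering 71.3 Mb. The labelled cell type was checked with 10 T cell genes (Cd3e, Cd3d, Cd3g, Cd8a, Cd8b1, Lck, Bcl11b, Cd5, Cd6 and Themis). All 10 lay under at least 1 region in the KO list and 7 in the WT list, where Cd3e, Cd8a and Themis had none. Among all protein-coding genes 71.0% had a region in the KO list and 71.4% in the WT list, so the WT count was near that of genes at large. Summed over these 10 genes, 141911 bp were covered in the KO list and 14760 bp in the WT list. Their median covered length was 9241 bp in the KO list and 723 bp in the WT list. Over all protein-coding genes it was 2243.5 bp in the KO list and 2256 bp in the WT list. By covered length, the library labelled WT thus held little of the mark over genes that define its labelled cell type. The part of this in the differences below was not tested. In bulk samples, fewer cells of a type and less of the mark per cell cannot be told apart.

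The 300 bases from 250 before to 50 after a gene's start were available from RefSeq (build GRCm38.p6) for 31 of the 35 members, and not for Klrg1, Clec2f, Klrd1 and Klri2. The first sequences are shown because the KO list had a region over each of these starts and the WT list had none. They belong to Klrk1 (chr6:129623815-129624114), Klrc1 (chr6:129678924-129679223) and Klra1 (chr6:130386825-130387124), all on the minus strand. They run 5′ to 3′, and capitals mark the core letters bound by RUNX factors, TGTGGT, on either strand.
Klrk1: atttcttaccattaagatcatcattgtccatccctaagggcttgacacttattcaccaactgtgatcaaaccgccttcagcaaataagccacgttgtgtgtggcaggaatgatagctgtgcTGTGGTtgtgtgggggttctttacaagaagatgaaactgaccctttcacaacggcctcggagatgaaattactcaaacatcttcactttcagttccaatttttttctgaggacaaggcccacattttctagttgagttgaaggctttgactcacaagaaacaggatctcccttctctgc
Klrc1: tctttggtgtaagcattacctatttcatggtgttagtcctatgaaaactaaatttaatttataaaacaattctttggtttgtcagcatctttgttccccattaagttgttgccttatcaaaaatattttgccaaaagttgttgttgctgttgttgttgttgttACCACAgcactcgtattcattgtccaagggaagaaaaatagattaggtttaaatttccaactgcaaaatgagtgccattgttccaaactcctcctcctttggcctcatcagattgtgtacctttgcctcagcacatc
Klra1: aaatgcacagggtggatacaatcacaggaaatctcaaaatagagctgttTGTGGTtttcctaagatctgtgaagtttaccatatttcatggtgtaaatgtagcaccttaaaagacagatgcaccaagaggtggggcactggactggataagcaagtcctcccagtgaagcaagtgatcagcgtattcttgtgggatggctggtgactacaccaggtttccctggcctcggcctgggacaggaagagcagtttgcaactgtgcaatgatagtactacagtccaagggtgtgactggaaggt

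Clec2d (chr6:129180365-129180664, plus strand) and Klrg2 (chr6:38637190-38637489, minus strand) are shown as starts under a region in both lists. Neither holds the RUNX core. The Clec2d window has 5 CpG dinucleotides and the Klrg2 window 12, against 4 in Klrk1, 2 in Klra1 and 1 in Klrc1. The other starts marked in both lists lie within the range of those 3, with 4 CpG dinucleotides at Clec2i and 1 at Klrb1c, and the Klrb1c window also holds the RUNX core.
Clec2d: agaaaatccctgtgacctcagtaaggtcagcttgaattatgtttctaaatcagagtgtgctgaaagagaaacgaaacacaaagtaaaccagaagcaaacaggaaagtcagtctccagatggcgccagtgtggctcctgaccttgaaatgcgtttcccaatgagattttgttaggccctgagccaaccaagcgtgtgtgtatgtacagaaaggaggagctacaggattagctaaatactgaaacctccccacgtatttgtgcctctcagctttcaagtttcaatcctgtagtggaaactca
Klrg2: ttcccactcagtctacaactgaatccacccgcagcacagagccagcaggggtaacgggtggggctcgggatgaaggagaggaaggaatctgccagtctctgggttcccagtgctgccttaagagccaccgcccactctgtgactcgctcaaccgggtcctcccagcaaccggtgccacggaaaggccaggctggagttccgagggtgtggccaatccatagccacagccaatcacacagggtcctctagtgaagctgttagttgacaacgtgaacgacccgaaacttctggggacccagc

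Low CpG content was shared by nearly all members. Some genes have more than 1 listed start, so the 31 members gave 37 windows. Their median was 2 CpG dinucleotides, with a range of 0 to 29, whereas the 21262 windows of all protein-coding genes had a median of 13. Only Klrg2 and Clec2l, which lie next to each other, away from the complex, reached 10 CpG, a level reached by 56.7% of all windows. The median share of G and C was 40.7% in members and 56.3% in all windows.

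**Figure D1:**
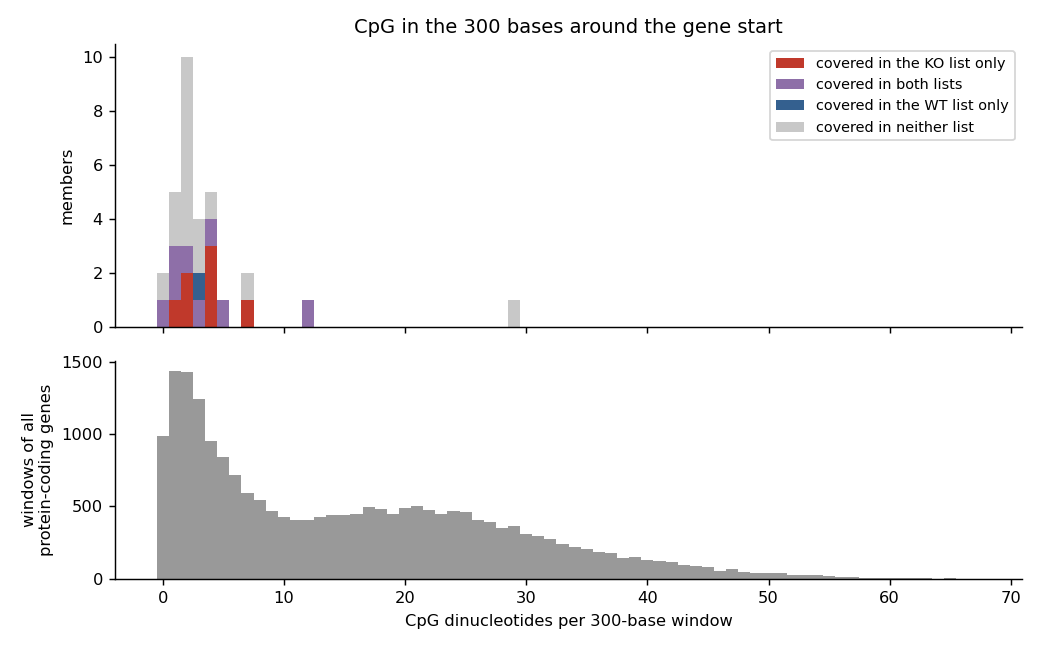
The number of CpG dinucleotides per 300-base window (horizontal axis) is plotted for the first listed start of 31 members (top, number of genes, coloured by the lists in which the gene was covered) and for 21262 windows of all protein-coding genes (bottom, number of windows). All members except Klrg2 with 12 and Clec2l with 29 lie at 7 or below, both those covered in the KO list and those covered in neither.

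The following 4 motifs were searched on both strands, and none of them contains another. The RUNX core TGTGGT was found in the windows of 8 members (Klra1, Klrb1a, Klrb1c, Klrc1, Klrc2, Klrc3, Klre1 and Klrk1), which is 24.3% of member windows, against 15.0% of all windows. The AP-1 letters TGANTCA were found in 7 members (Clec2e, Clec2g, Clec2h, Klra2, Klrc2, Klrc3 and Klrk1), or 21.6% of member windows against 6.99% of all. The ETS letters AGGAAGT occurred in 4 members (Clec2e, Klrb1a, Klrb1b and Klrb1f), or 13.5% against 9.07%. The T-box letters GGTGTGA occurred in Klra1 alone, or 2.70% against 3.68%. These matches describe letters only, and windows of related genes are not independent.

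Over the gene body plus 2.5 kb either side, 16 of 35 members had a region in the KO list and 10 in the WT list. Among all protein-coding genes 71.0% had a region in the KO list and 71.4% in the WT list, so members were covered less often than genes at large in both. Of the members, 9 were covered in both lists, 7 in the KO list only and 1 in the WT list only. The exact 95% interval of that share, 7 of 35, was 8.44 to 36.9% (counting error only), where 2.32% of all genes were covered in the KO list only. Only a gene with no WT region can be counted there, and 28.6% of members had a WT region, against 71.4% of all genes. The gap between the KO-only shares is not corrected for this, and neighbouring related genes are not independent. The 1 gene covered in the WT list only makes up 2.86% (0.0723 to 14.9%), near the 2.66% of all genes. Covered length was at least 1000 bp longer in the KO list for 8 members (22.9%, exact 95% interval 10.4 to 40.1%) and at least 1000 bp shorter for 0 (upper bound 10.003%). Both intervals hold the share of all genes, 12.1% longer and 8.63% shorter. The median difference, KO minus WT, was 0 bp for members and for all genes, and 18 members had no region in either list (51.4%, against 26.3% of all genes). In another setting only the 20000 regions of highest fold were kept from each list. The KO list then covered 6 members (17.1%, against 61.4% of all genes) and the WT list 4 (11.4%, against 58.7%). Covered in the KO list only were 3 (Clec2i, Klrd1 and Klrk1), which is 8.57% of members against 4.86% of all genes. Clec2i and Klrd1 have WT regions in the full list, which that cut removed. Under that setting 4 members were at least 1000 bp longer in the KO list, 11.4% against 11.9% of all genes, so the members showed no excess over genes at large in that count.

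**Figure D2:**
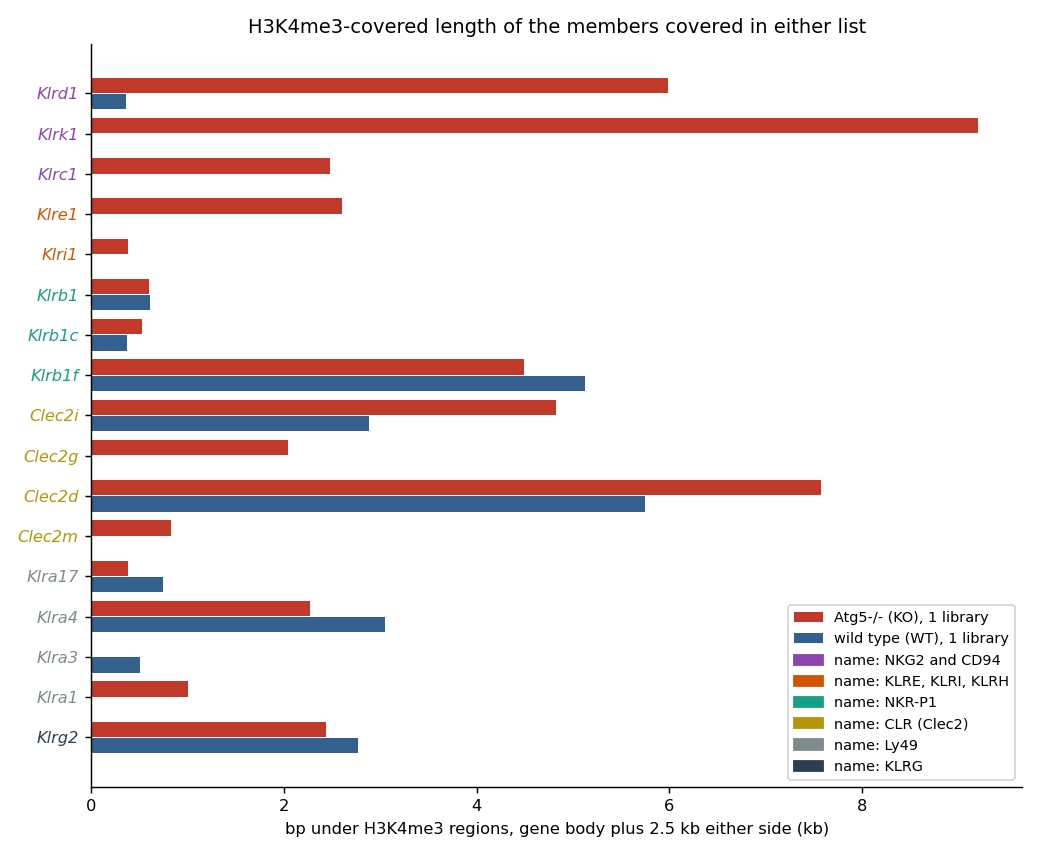
Covered length in kb (horizontal axis, gene body plus 2.5 kb either side) is shown for the 17 members covered in at least 1 list, with the KO library above the WT library and names coloured by family; each bar is 1 library and carries no error. Klrk1 has 9204 bp in the KO list and no bar in the WT list, whereas 6 members (Klra4, Klrb1f, Klra3, Klra17, Klrg2 and Klrb1) are longer in the WT list, with differences (KO minus WT) from -781 to -10 bp.

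The NKG2 and CD94 genes differed most. Klrk1 encodes NKG2D, an activating receptor for stress-induced ligands of the RAE-1, H60 and MULT1 families. Klrk1 (chromosome 6, 129610323 to 129623903) had 9204 bp covered in the KO list, or 49.5% of its window, and 0 bp in the WT list. This was rank 206 among the gains of the 21770 genes. The Klrk1 start, whose sequence is printed above, lay under a KO region of 3516 bp whose deposited fold, the authors' ratio of summit to background, was 6.91. The widest region there, 6622 bp with a fold of 19.3, lay at the other end of the gene, and its nearest edge was 11017 bp from the start. By width it stood at percentile 98.9 of the KO list, and by fold at percentile 75.4. It ran from 129606226 to 129612847, past that end of the gene towards Klrd1, and its summit at 129608757 lay outside the gene body. Over the gene body alone the KO list had 6219 bp more than the WT list. The gene table gives no exons, so it cannot be said which exons or introns the parts inside the gene cover.

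Klrd1 encodes CD94, the common partner of the NKG2A, NKG2C and NKG2E chains in receptors for the MHC class Ib molecule Qa-1. Klrd1 (129588092 to 129598775) had 5989 bp covered in the KO list, against 362 bp in the WT list. Its main KO region spanned 5016 bp with a fold of 13.2, and the only WT region lay wholly inside it. That WT region, 362 bp wide, was among the narrowest of its list, at width percentile 8.03. Klrc1 encodes NKG2A, the inhibitory chain that pairs with CD94. Klrc1 (129666015 to 129682852) had 2478 bp in the KO list, in regions of 1310 and 1168 bp with folds of 5.25 and 3.99, against 0 bp in the WT list. The first of these lay over the gene's start. Neither passed a −log10 q of 10. Klrc2, the activating NKG2C chain, and Klrc3, the NKG2E chain, had no region in either list.

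Klrc2 and Klrc3 are also the members whose start windows are most alike. Their windows, Klrc3 (chr6:129643239-129643538) and Klrc2 (chr6:129660507-129660806), both on the minus strand, share a run of 150 identical bases, marked in capitals.
Klrc3: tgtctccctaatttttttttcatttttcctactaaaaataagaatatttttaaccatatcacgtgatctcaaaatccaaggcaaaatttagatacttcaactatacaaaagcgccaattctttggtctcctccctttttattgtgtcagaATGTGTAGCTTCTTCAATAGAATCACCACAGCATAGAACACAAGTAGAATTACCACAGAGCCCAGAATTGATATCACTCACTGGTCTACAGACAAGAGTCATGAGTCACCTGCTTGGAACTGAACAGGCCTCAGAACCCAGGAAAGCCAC
Klrc2: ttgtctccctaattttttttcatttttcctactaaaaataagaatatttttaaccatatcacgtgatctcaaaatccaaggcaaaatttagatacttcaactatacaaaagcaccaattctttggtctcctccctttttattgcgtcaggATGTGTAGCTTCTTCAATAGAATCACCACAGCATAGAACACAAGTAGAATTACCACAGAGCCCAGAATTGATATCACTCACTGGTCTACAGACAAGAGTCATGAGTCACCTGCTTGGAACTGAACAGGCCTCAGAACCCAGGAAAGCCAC

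Reads from such stretches can fit several places, and how they were handled is not given in the sources used here. Among the 15 members with a start window and no region in either list, the longest run shared with another member had a median of 41 bases (10 to 150). Among the 16 covered members it had a median of 13 bases (10 to 75). Its part in the absence of regions was not tested. The Clec2h and Clec2e windows shared 121 bases, the Klra9 and Klra3 windows 75 bases and the Klra5 and Klra6 windows 53 bases. Values of these genes, covered or not, are therefore uncertain.

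Klre1, Klri1 and Klri2 lie on either side of the NKG2 genes, and KLRE1 forms receptors with either KLRI chain. Klre1 (129559365 to 129585828) had 2601 bp covered in the KO list, in 3 regions of 309, 693 and 1599 bp with folds between 4.70 and 6.07, against 0 bp in the WT list. None of the 3 lay within 1 kb of a listed Klre1 start, the nearest edge being 2276 bp away. Klri1 had 1 KO region of 385 bp, 11763 bp from its start, and no WT region. Klri2 and Klrh1 had no region in either list. In the 0.225 Mb from Klre1 to Klrh1 the KO list had 13 regions covering 24620 bp, or 10.9%, and the WT list had 1 region covering 362 bp, or 0.161%. Between the outer ends of Klrd1 and Klrk1, 45.5% was covered in the KO list and 1.01% in the WT list.

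**Figure D3:**
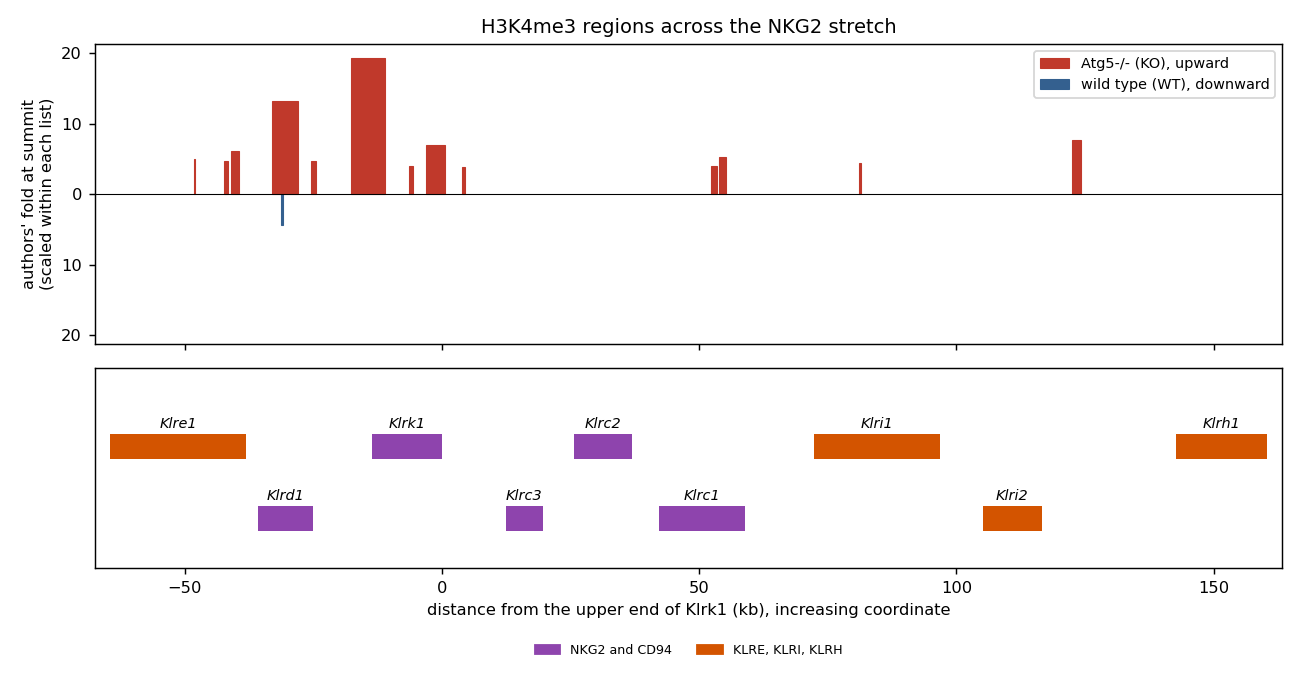
Regions across the NKG2 stretch are drawn to scale against distance from the upper end of Klrk1 in kb. KO regions point upward and WT regions downward, at the authors' fold of each summit. Folds are relative to the background used for each list and are not compared between lists. The lower panel places the genes. The KO regions at Klrd1 and Klrk1 reach folds of 13.2 and 19.3, and the only WT region lies inside Klrd1.

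NKR-P1 receptors, encoded by the Klrb genes, bind CLR proteins encoded by the neighbouring Clec2 genes. Of the 5 Klrb genes, 3 were covered in both lists and 2, Klrb1a and Klrb1b, in neither. Among all genes 68.7% were covered in both and 26.3% in neither. No Klrb gene differed by 1000 bp or more. Klrb1c, which encodes the NK cell antigen NK1.1, had a KO region of 525 bp with a fold of 4.42 that reached over its start, and a WT region of 369 bp with a fold of 3.64 that ended 166 bp short of it. Klrb1f, a receptor for the CLR protein Clr-g, had 4488 bp in the KO list and 5119 bp in the WT list. Its strongest region began over 2 kb inside the gene in both lists, with summits at 3213 and 3212 bp from the start in the KO and WT lists. Klrb1 had 1 narrow region in each list, of 602 bp in the KO list and 612 bp in the WT list.

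Among the Clec2 genes, 4 of 8 had a region in the KO list and 2 in the WT list, where 71.0% and 71.4% of all genes had one. Of these Clec2 genes 1, Clec2d, was the member most fully covered for its length in both lists. Clec2d encodes Clr-b, a ligand that NK cells read through the inhibitory receptor of Klrb1b and that many blood cells carry. Clec2d (129180615 to 129186535) had 7576 bp covered in the KO list, 69.4% of its window, and 5745 bp, 52.6%, in the WT list. The regions over its start spanned 6841 bp in the KO list and 5745 bp in the WT list, at width percentiles 98.98 and 99.03 and fold percentiles 99.6 and 97.5 of their own lists. Clec2i encodes Clr-g. It had 1 KO region of 4819 bp with a fold of 26.0, at fold percentile 81.2 of its list. The WT list had regions of 2524 and 362 bp with folds of 9.10 and 4.42, at fold percentiles 54.8 and 21.5 of that list. The Clec2i region also overlaps the gene BC035044, so it cannot be given to either gene alone.

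Clec2g had 2046 bp in the KO list and 0 bp in the WT list. Both KO regions lay over 38 kb from the listed start of Clec2g and inside the long noncoding RNA gene Gm15987, and neither passed a −log10 q of 10. Clec2m had 1 KO region of 829 bp, 1697 bp from its start on the upstream side, against 0 bp in the WT list. Clec2e, Clec2f, Clec2h and Clec2l had no region in either list.

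Ly49 receptors, encoded by the Klra genes, bind MHC class I molecules, and most of them are inhibitory. Of the 11 Klra genes placed on the main assembly, 7 had no region in either list (Klra2, Klra5, Klra6, Klra7, Klra8, Klra9 and Klra10). Among all genes 26.3% had none. Klra8 encodes Ly49H, the activating receptor for a cytomegalovirus protein. Klra4, which encodes the activating receptor Ly49D, had 2271 bp in the KO list and 3052 bp in the WT list, none of it within 1 kb of its start. Its main region spanned 1971 bp with a fold of 7.46 in the KO list and 2467 bp with a fold of 13.5 in the WT list. By fold these stood at percentiles 46.9 and 66.8 of their own lists. Klra17, the gene of Ly49Q, a receptor known from plasmacytoid dendritic cells, had 379 bp in the KO list and 749 bp in the WT list, over 27 kb from its start.

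The starts of the inhibitory receptors Ly49A and Ly49C went opposite ways. Klra1 (Ly49A) had a KO region of 1003 bp with a fold of 6.90 over its start and none in the WT list. Klra3 (Ly49C) had a WT region of 504 bp with a fold of 3.90 over its start and none in the KO list. The Klra3 region is narrow and weak, at fold percentile 13.1 of the WT list. Over the Ly49 stretch from Klra17 to Klra1, 1.24% was covered in the KO list and 0.970% in the WT list.

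Klrg1 encodes an inhibitory receptor that marks terminally differentiated effector CD8+ T cells. It lies at 122270596 to 122282833, apart from the complex, and had no region within 2.5 kb in either list. Klrg2 had 2440 bp in the KO list, with a fold of 32.6, and 2767 bp in the WT list, with a fold of 33.8, over its start in both.

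Across members the 27 KO regions had a median width of 1003 bp (300 to 6841) and a median fold of 5.54, and the 14 WT regions had a median width of 687.5 bp (362 to 5745) and a median fold of 5.25. For comparison, the whole lists had median widths of 1130 and 1103 bp and median folds of 8.02 and 7.81 in the KO and WT libraries. Most member regions were thus weaker than the middle of their list. Of the KO regions, 12 (44.4%, exact 95% interval 25.5 to 64.7%) overlapped a WT region by at least 1 bp, against 75.97% of the whole KO list. Of the WT regions, 13 of 14 (92.9%, 66.1 to 99.8%) overlapped a KO region, against 73.3% of the whole WT list. The 15 KO regions without WT overlap had folds from 3.70 to 19.3.

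Starts of members were marked less often than starts at large. Of 31 members with a listed start, 7 had a region within 1 kb of it in the KO list and 5 in the WT list. Among 17491 protein-coding genes with a listed start, 62.4% had one in the KO list and 60.7% in the WT list. Starts of Clec2d, Clec2i, Klrb1c and Klrg2 were marked in both lists, those of Klrk1, Klrc1 and Klra1 in the KO list only, and that of Klra3 in the WT list only. Of the 25 KO regions at members with a listed start, 17 lay more than 1 kb from it, as did 8 of 13 WT regions. The same share over the whole lists was not counted, so these counts cannot be read as particular to members.

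**Figure D4:**
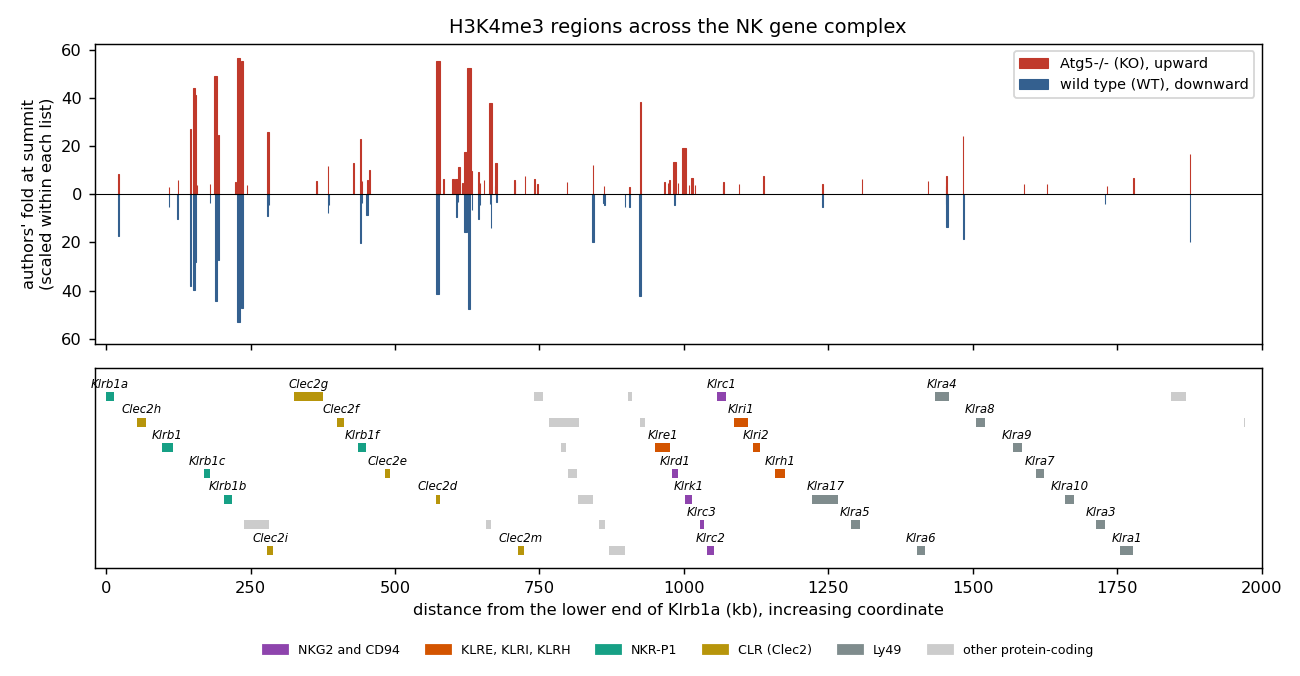
Regions of the KO list (upward) and the WT list (downward) are drawn at the authors' fold against distance from the lower end of Klrb1a in kb, with gene bodies below coloured by family; Klra2 lies further right and is not drawn. The tallest regions, in the NKR-P1 and CLR stretch, occur in both lists, while the cluster at Klre1, Klrd1 and Klrk1 stands in the KO list with 1 small WT region.

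From Klrb1a to the end of Klra2 (128609227 to 131247716, 2.64 Mb) the KO list covered 135278 bp, or 5.13%, in 75 regions, and the WT list 74574 bp, or 2.83%, in 43 regions. Whole lists differed far less, with 73.1 Mb in the KO list and 71.3 Mb in the WT list. The difference of 60704 bp lay mostly in the NKR-P1 and CLR stretch, with 90785 bp in the KO list and 57416 bp in the WT list, and in the NKG2 stretch described above. The stretch of myeloid lectin genes between them, from Clec12a to Gabarapl1, had 10018 bp in the KO list and 9959 bp in the WT list. Most of the covered length of the NKR-P1 and CLR stretch lay outside the windows of its members. Summed over their windows, the NKR-P1 genes had 5615 bp in the KO list and 6100 bp in the WT list. The CLR genes had 15270 bp in the KO list and 8631 bp in the WT list.

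Of 16 other protein-coding genes inside the complex, 10 were covered in the KO list and 7 in the WT list, where 71.0% and 71.4% of all genes were. Cd69, an early activation marker of lymphocytes, had 5323 bp in the KO list, against 2073 bp in the WT list. BC035044 had 6068 bp in the KO list, against 3036 bp in the WT list. Of these, 4819 bp in the KO list and 2886 bp in the WT list are the Clec2i regions given above. Clec12a, an inhibitory lectin of myeloid cells, had 3636 bp in the KO list, against 0 bp in the WT list. Clec1a and Clec7a went the other way: Clec1a had 1379 bp in the KO list and 3552 bp in the WT list. Clec7a, which encodes the beta-glucan receptor Dectin-1, had 609 bp in the KO list and 2378 bp in the WT list. Clec12b and Clec1b each had 954 bp in the KO list, which is the same stretch since their bodies overlap, and 0 bp in the WT list.

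Of 14 listed genes for adaptors and signalling proteins, 13 were covered in the KO list and 12 in the WT list. Several of them, such as Cd247, Sh2d1a and Zap70, serve other receptors of T or NK cells and are not particular to this complex. All 12 were covered in both lists, as were 9 of the 35 members (25.7%) and 68.7% of all protein-coding genes. At least 1000 bp more was covered in the KO list at 7 of the 14, against 12.1% of all genes, and no gene had 1000 bp less. The median difference was 1668.5 bp, against 0 bp over all genes. Cd247, which encodes the zeta chain of the T cell receptor, had 30803 bp in the KO list, against 8120 bp in the WT list. Sh2d1a, the gene of the adaptor SAP, had 7808 bp in the KO list and 0 bp in the WT list. Zap70, a kinase of T and NK cells, had 8131 bp in the KO list and 471 bp in the WT list. Vav1, a guanine exchange factor downstream of NKG2D, had 8680 bp in the KO list and 2834 bp in the WT list. Ptpn6 and Inpp5d, phosphatases recruited by inhibitory receptors, had 4671 and 4097 bp more in the KO list.

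The adaptors of NKG2D themselves did not show that pattern. Hcst, the gene of DAP10, had 5320 bp in the KO list and 5750 bp in the WT list. Tyrobp, the gene of DAP12, had 5245 bp in the KO list and 4539 bp in the WT list. Hcst and Tyrobp are neighbours on chromosome 7 and their windows overlap. Part of their covered length is thus the same stretch, and their values are not independent. Fcer1g, another adaptor found in NK and myeloid cells, had 3384 bp in the KO list and 4201 bp in the WT list, and Sh2d1b1 had no region in either.

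Ligands encoded outside the complex were covered in both lists at 8 of the 9 genes found in the gene table, and H60c in neither. Raet1a, Raet1b and Raet1c were not in that table. H2-T23, which encodes Qa-1, the ligand of CD94-NKG2A, had 3301 bp in the KO list and 3324 bp in the WT list. H2-K1, a classical class I gene, had 6546 bp in the KO list and 2528 bp in the WT list. The NKG2D ligand gene H60b had 2604 bp in the KO list and 352 bp in the WT list. Cdh1, the KLRG1 ligand E-cadherin and also an epithelial gene, had 8633 bp in the KO list and 7364 bp in the WT list. H2-D1, another classical class I gene, had 5121 bp in the KO list and 4590 bp in the WT list. Raet1e was shorter in the KO list, with 5521 bp against 6571 bp in the WT list. Ulbp1, the gene of MULT1, had 4307 bp in the KO list and 4786 bp in the WT list.

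Markers of NK cells and group 1 innate lymphoid cells were partly covered. Of 11 genes, 7 were covered in the KO list and 5 in the WT list, where 71.0% and 71.4% of all genes were. Their summed covered length was 28205 bp in the KO list and 9620 bp in the WT list. Of these 11, 4 are members of the complex and several are also used by CD8+ T cells. Ncr1, which encodes NKp46 and is the most specific of them, had no region in either list, nor had Klra8 and Klri2. Eomes, Txk, Itga2, Xcl1 and Gzma were longer in the KO list, with 7577, 8472, 5577, 2301 and 1152 bp, against 2195, 2890, 3352, 0 and 0 bp in the WT list. Cma1 had 0 bp in the KO list and 814 bp in the WT list. Among granule genes of killer cells, Prf1, the gene of perforin, had 5055 bp in the KO list and Gzmb, of granzyme B, 2173 bp, against 0 bp in the WT list for both.

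Markers of other cell types were mostly covered, whichever the list. Summed covered length was 32690 bp in the KO list and 31592 bp in the WT list over 10 myeloid genes, of which Clec4n was at 0 in both lists and Clec12a in the WT list. Over 6 epithelial and mammary tumour genes it was 20661 bp in the KO list and 16597 bp in the WT list, none of them at 0. Over 6 endothelial and fibroblast genes it was 29100 bp in the KO list and 38209 bp in the WT list, with Tie1 at 0 in the KO list. The part of these cells in the values of the members was not tested.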

How the data were processed

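The series has 6 samples, and the 2 deposited H3K4me3 region lists, 1 per genotype, enter here; H3K27me3 and input were not used here. Regions were called with MACS2 on GRCm38 (mm10), per the submitters' processing notes. Not given in the sources used here are the aligner, the MACS2 settings, the handling of multiply mapped reads and any use of the input. Each deposited fold is the ratio of a region's summit to its background, and whether that background came from the input is not given. Significance was deposited as −log10 p and −log10 q of that summit, and the deposited score was not used. All are the authors' values and served within 1 list alone, for description, ranking or filtering. The lowest −log10 q was 2.02 in the KO list and 2.00 in the WT list.

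Covered length is the number of bp under regions over the gene body plus 2.5 kb either side. Lengths depend on library depth, which is unknown, and on the calling threshold. Chromosomes 1 to 19, X and Y were kept. The gene table has neither strand nor exons, so gene starts were taken from the RefSeq promoter table. A start was called marked if a region lay within 1 kb. Intervals are exact (Clopper-Pearson, 95%). Every member is named. From other lists up to 6 genes with the largest differences are named, besides genes at 0 and 6 comparison genes. Hcst, Tyrobp, Fcer1g, H2-T23, Clec9a and the NK cell markers fall outside that rule and were named after their values were seen. The B cell marker list is not reported here. Members and lists were chosen with earlier results of these data known. The coverage step was tested on simulated data. Tools were Matplotlib 3.10.9, SciPy 1.17.1, pandas 2.3.3 and NumPy 2.4.6 under Python 3.11.15.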

Additional observations from a re-analysis of the deposited data

How the results depend on the processing

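Each alternative changed 1 setting. At a −log10 q of at least 10 the KO list covered 10 members (28.6%, against 67.3% of all genes). The WT list covered 5 (14.3%, against 65.9%), with 0 covered in the WT list only (2.23% of all genes). Another setting kept the 20000 regions of highest fold in each list. The KO list then covered 6 members (17.1%, against 61.4% of all genes) and the WT list 4 (11.4%, against 58.7%). Covered in the KO list only were 3 (Clec2i, Klrd1 and Klrk1, 8.57% against 4.86%), and Clec2i and Klrd1 had lost their WT regions to that cut. At least 1000 bp longer in the KO list were 4 (11.4%, against 11.9% of all genes), so the members showed no excess in that count. In the main setting the interval of that share already held the share of all genes. At least 1000 bp shorter was 1 (Klra4, 2.86%, against 6.58% of all genes), and the difference over the complex was 30729 bp. Klra4 was also at least 1000 bp shorter at a −log10 q of at least 5 (1 member, 2.86%, against 8.1% of all genes). With 5 kb either side, 11 members were covered in the KO list only (31.4%, against 2.17% of all genes). In the WT list only there were 0 (2.66% of all genes). These counts moved because Klra5, Klra6, Klra7 and Klra9 gained a KO region and Klra3 was then covered in both. Within 2.5 kb of the start, 11 members were marked in the KO list and 7 in the WT list. The share over all genes was not counted for that window. All other counts stayed within 1.5 times the reported one, the median difference was 0 bp in all 6 settings, and the shares of overlapping regions stayed within their intervals under a stricter overlap.

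No called difference of a single member changed sign under these settings. Klrk1 ranged from 5025 to 11429 bp and Klrd1 from 5016 to 6920 bp more in the KO list, whereas Klrc1, Klre1, Klri1, Clec2g, Clec2m, Klra1, Klra3, Klra17, Klrb1 and Klrb1c each reached a difference of 0 bp under at least 1 stricter filter. No paired analysis was possible because each genotype has 1 library, and no library could be left out. Depth is unknown, so an absent region is one not called and not an absent mark.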

Other observations

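Most of the covered length of the complex lay outside the members. In the KO list 49 of 75 regions and in the WT list 30 of 43 regions touched no member window, covering 88486 bp in the KO list and 55020 bp in the WT list. Of these, 25 KO regions and 4 WT regions had no overlap with the other list. In the whole lists, 75.97% of KO regions and 73.3% of WT regions overlapped the other list by at least 1 bp. Among all regions outside the members, the region of highest fold in both lists stood beside the NKR-P1 genes. It lay at 128835099 to 128840252 in the KO list and spanned 5154 bp with a fold of 56.7, and its WT counterpart spanned 4333 bp with a fold of 53.0. Another, over the long noncoding RNA gene LOC115490435, spanned 4049 bp with a fold of 55.3 in the KO list and 3834 bp with a fold of 47.4 in the WT list.

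Between Clec2d and Cd69, the long noncoding RNA gene 2310001H17Rik lay under a KO region of 7060 bp with a fold of 52.5, where the WT list had regions of 3849 and 1182 bp. In the neighbouring gene Gm38906 the KO list had 6 regions of 377 to 4291 bp and the WT list had regions of 2569 and 284 bp. A KO region of 2687 bp at 129035866 to 129038552, between Clec2f and Klrb1f, had no WT overlap and a fold of 13.0. The pseudogene Klra11-ps, among the Ly49 genes, held a region in both lists, 1036 bp wide with a fold of 24.3 in the KO list and 1084 bp with a fold of 18.7 in the WT list. These regions were chosen by size or fold after the values were seen.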
